A study of Drosophila melanogaster with 8 samples.

Results

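The loci of 7 genes carried or adjoined the strongest Cph-over-control peaks, and they were examined base by base in the peak lists of a NanoDam experiment on adult *Drosophila* midgut progenitors. The genes are *CG10232*, *CG10365*, *P5CS*, *Pp1-87B*, *Scgbeta*, *CG17202* and *Nhe2*, out of 18277 annotated genes, and each locus was taken as the gene body plus 3000 bp on both sides. They were chosen by the fold enrichment of Cph over control in these same lists, so the height of their strongest peak is given as a description and carries no test. The 7 genes shared only 4 such peaks. One lay between *Scgbeta* and *Pp1-87B* inside *CG17202*, another at the start of *CG10365* upstream of *CG10232*, and the remaining regions lay in introns of *P5CS* and *Nhe2*.

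Chronophage (Cph) is a zinc finger transcription factor and the fly relative of the vertebrate BCL11 proteins. NanoDam couples the bacterial Dam methylase to a nanobody that recognises GFP or YFP, so that a YFP-tagged DNA-binding protein recruits the enzyme and adenines in nearby GATC motifs become methylated. DpnI cuts methylated GATC motifs, the released fragments are amplified and sequenced, and NanoDam without a tagged partner reports how readily open chromatin is methylated by the enzyme alone. *P5CS* encodes the enzyme that commits glutamate to proline synthesis, *Pp1-87B* a catalytic subunit of protein phosphatase 1, *Scgbeta* a sarcoglycan of the dystrophin complex and *Nhe2* a sodium/proton exchanger, whereas *CG10232*, *CG10365* and *CG17202* are annotated as uncharacterised.

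The Cph group held 4 libraries of genotype CphYFP x UAS-NanoDam x esgTS, and the Control group held 4 libraries of genotype UAS-NanoDam x esgTS, which lack a tagged partner. In both groups flies were reared at 18 °C, aged 3 to 5 days and held at 29 °C for 17 h, and 30 midguts were pooled for each biological replicate. NanoDam was driven by esgTS, a temperature-controlled driver active in midgut progenitors, but DNA came from whole midguts, and peak lists hold no expression markers with which to check the cell type. Depth was 55557571 to 107278227 reads in Cph libraries and 70573626 to 125721243 reads in Control libraries. Each Cph library was called against the Control library of its number (4 Cph-over-control lists), and every library was also called without a control (8 lists), which makes the 12 lists used here. Replicates 3 and 4 of both groups carry the batch label 2 and replicates 1 and 2 carry none, so values are also given within replicates 1 and 2 and within replicates 3 and 4.

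Stretches of the reference genome (*Drosophila* Release 6, plus strand, 5′ to 3′) show the sequence at or beside these peaks. Capitals mark each GATC, the motif that Dam methylates, and each TGACCA, a motif of the BCL11 family, read on either strand. Many peak edges lay at a fixed distance from a GATC: the most frequent start was 11 bp after the first base of a GATC (42.0% to 46.9% of peaks in each of the 12 lists) and the most frequent end 8 bp before one (43.0% to 47.3%). For *CG10365* only the 30 bases around the GATC at the edge are shown, since the peak lies in an untranslated exon. The *Nhe2* stretch runs past the end of its shared region to a TGACCA outside it.
CG17202, chr3R:12423136-12423435: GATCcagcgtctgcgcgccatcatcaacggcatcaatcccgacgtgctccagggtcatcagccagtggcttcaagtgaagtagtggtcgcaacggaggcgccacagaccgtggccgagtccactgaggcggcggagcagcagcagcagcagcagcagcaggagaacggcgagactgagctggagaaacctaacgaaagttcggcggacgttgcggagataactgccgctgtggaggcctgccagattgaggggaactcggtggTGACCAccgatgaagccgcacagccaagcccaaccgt
CG10365, chr3R:23723672-23723701: catcaaattgttgcacttggagaGATCgga
P5CS, chr3L:21974613-21974837: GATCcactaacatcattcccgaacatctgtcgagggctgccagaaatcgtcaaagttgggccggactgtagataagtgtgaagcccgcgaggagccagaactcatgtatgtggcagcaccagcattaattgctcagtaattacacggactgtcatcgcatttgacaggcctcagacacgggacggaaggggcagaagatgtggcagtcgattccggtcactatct
Nhe2, chr2L:21108577-21108840: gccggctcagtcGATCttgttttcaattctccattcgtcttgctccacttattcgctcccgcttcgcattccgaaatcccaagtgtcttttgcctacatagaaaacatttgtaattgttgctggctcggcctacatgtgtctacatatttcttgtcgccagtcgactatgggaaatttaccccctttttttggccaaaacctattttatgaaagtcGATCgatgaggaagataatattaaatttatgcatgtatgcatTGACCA

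A shared region was defined as a stretch covered by a peak in each of the 4 Cph-over-control lists for 200 bp or more, and 7289 were found. Its fold enrichment in a list is the ratio of Cph pileup to the local control, as MACS2 gave it for the overlapping peak, and shared regions were ranked by their lowest value over the 4 lists. The leading region of a locus is the one ranked highest. Pileup is the number of reads, extended to the fragment length, over a base. It is averaged over the peak in broad calling and is given here as RPM, that is, per 1000000 reads of the library.

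The leading region of *CG17202* (chr3R:12423145-12423458, 314 bp) lay in the coding part of its last exon and ranked 2 of 7289. It ended 163 bp from the 3′ end of *Pp1-87B*, which runs towards it, and began 716 bp upstream of *Scgbeta*, which runs away from it, so that one peak stands for 3 of the 7 genes. The fold enrichments were 9.14, 10.2, 10.5 and 8.48 in replicates 1 to 4, the narrowest range of the 4 leading regions (highest over lowest 1.24, with a mean of 9.57 ± 0.93, SD, n = 4). Cph libraries had 20.7, 33.7, 31.7 and 27.1 RPM in replicates 1 to 4. Control 1 had no peak over the region, and Control 2, 3 and 4 had 4.73, 5.19 and 5.45 RPM. All 4 Cph values were above the Control values that could be read, which is the contrast by which the region was chosen. The log2 difference of Cph over Control was 2.59 ± 0.26 (SD, n = 3 pairs), at 2.83 in replicate 2 and 2.46 on average in replicates 3 and 4. A missing peak says that the library passed no threshold there, not that it had no reads.

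The leading region of *CG10365* (chr3R:23723357-23723687, 331 bp) lay in the 5′ untranslated exon, with its centre 191 bp after the transcription start, and ranked 5. *CG10232*, whose start faces away from it, lay 1732 bp off. Fold enrichment was 7.05, 21.7, 14.7 and 9.84 in replicates 1 to 4 and thus varied the most of the 4 regions (3.08-fold between lists). The value of replicate 2 was the highest of all shared regions in that list. The Cph-over-control peaks were 797, 331, 350 and 448 bp wide in replicates 1 to 4, the reverse order of their fold enrichments. The values were thus taken over unlike stretches, and how much of the spread comes from width was not tested. Cph libraries had 16.4, 47.9, 22.9 and 17.2 RPM. Control 1 and 2 had 2.76 and 3.28 RPM, the lowest readable Control values of the 4 regions, and Control 3 and 4 had no peak. The difference was thus measured only in replicates 1 and 2, at log2 2.57 and 3.87. The Cph and Control peaks were 571 and 470 bp wide in replicate 1, and 331 and 231 bp in replicate 2. Control peaks covered 226 and 231 bp of the region, so these differences too were taken over unlike stretches.

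The leading region of *P5CS* (chr3L:21974624-21974837, 214 bp) lay in an intron 2728 bp after the transcription start and ranked 8. Fold enrichment was 5.59, 12.6, 13.4 and 8.24 in replicates 1 to 4. Cph libraries had 47.4, 64.5, 107.9 and 101.1 RPM, and Control libraries 15.1, 8.22, 14.2 and 22.2 RPM. The pileup was thus highest of the 4 regions in both groups, and every Control library had its own peak here, 4.96 to 15.5 times its local background. Cph over Control was log2 2.43 ± 0.64 (SD, n = 4 pairs), with 2.31 in replicates 1 and 2 and 2.56 in replicates 3 and 4.

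The leading region of *Nhe2* (chr2L:21108577-21108808, 232 bp) lay in an intron that *Nhe2* shares with *CG46307*, 911 bp from the nearest of its 3 transcription starts, and ranked 12. Fold enrichment was 4.29, 10.5, 6.55 and 4.86 in replicates 1 to 4. Cph libraries had 21.4, 28.5, 18.9 and 16.01 RPM, and Control libraries 7.65, 3.79, 5.14 and 5.62 RPM. Cph over Control was log2 1.95 ± 0.67 (SD, n = 4 pairs), the smallest of the 4 regions, with 2.199 in replicates 1 and 2 and 1.69 in replicates 3 and 4.

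**Figure D1:**
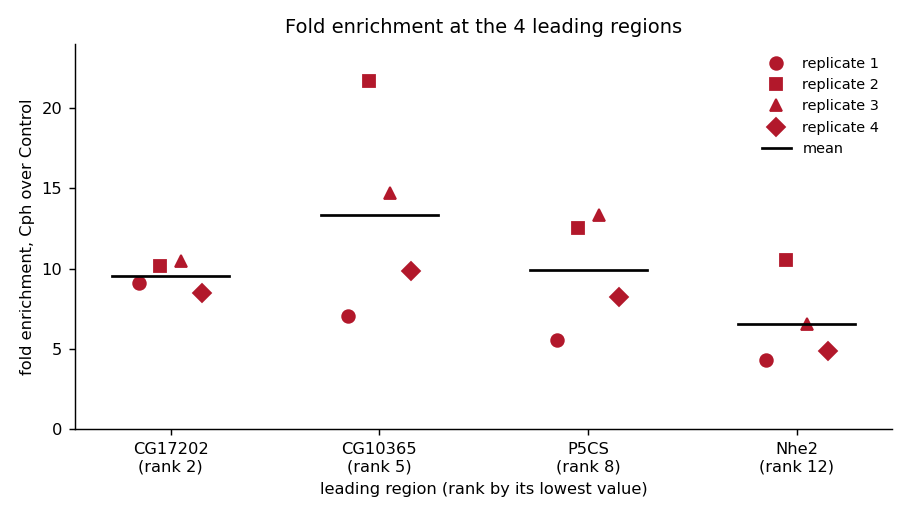
Fold enrichment of Cph over Control (y axis, linear) at the 4 leading regions (x axis, ordered by rank), with one symbol for each Cph-over-control list and a line at the mean. The 4 lists lie close together at CG17202 (8.48 to 10.5) and spread widely at CG10365 (7.05 to 21.7), where the peaks were 331 to 797 bp wide.

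**Figure D2:**
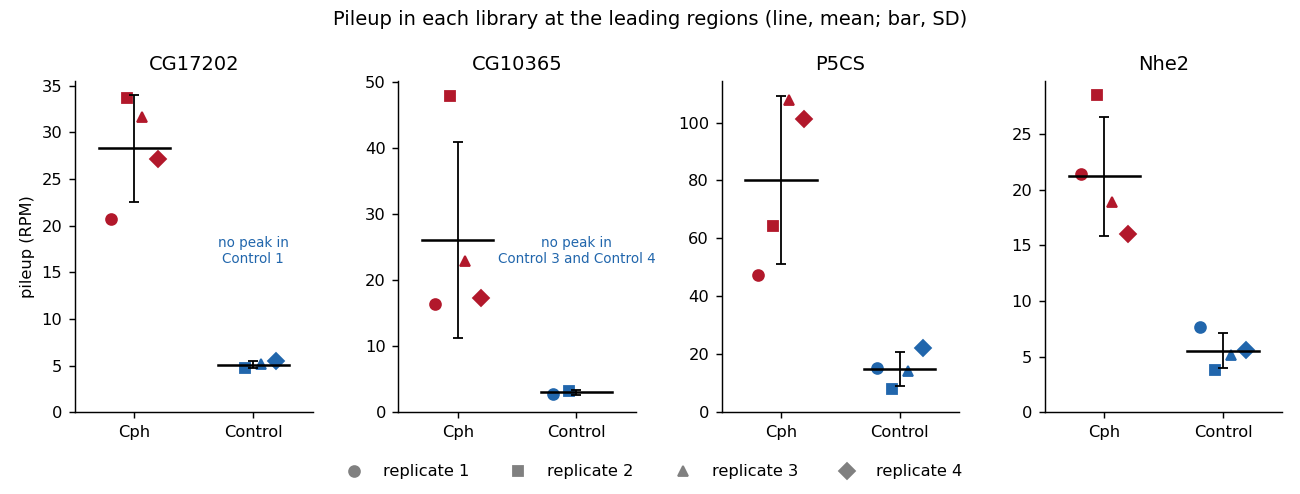
Pileup RPM reads at the leading regions in each Cph (red) and Control (blue) library, with the mean (line) and SD (bar) of the libraries that have a peak. All 4 Cph libraries lie above the Control libraries with a peak in each panel, the contrast by which the regions were chosen. The y axes differ, with P5CS highest at 107.9.

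The replicates were ordered alike only at *CG10365* and *Nhe2*. Replicate 1 had the lowest fold enrichment at *CG10365*, *P5CS* and *Nhe2*, and replicate 4 had the lowest at *CG17202*. Replicate 2 had the highest at *CG10365* and *Nhe2* and replicate 3 at *CG17202* and *P5CS*. Within single lists the *CG17202* region stood at rank 4, 21, 7 and 4 among the shared regions, *CG10365* at 10, 1, 3 and 3, *P5CS* at 21, 8, 4 and 5, and *Nhe2* at 60, 18, 25 and 42. None of them led all the lists. Ranked instead by the lowest −log10 q, which grows with the absolute pileup, *P5CS* stood at 3, *CG17202* at 27, *CG10365* at 68 and *Nhe2* at 306.

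Other shared regions stood among and above them, and over peaks of at least 3 of the 4 lists the *CG10365*, *CG17202*, *P5CS* and *Nhe2* regions ranked 4, 5, 6 and 30. Rank 1, with fold enrichments of 14.5 to 23.05, was held by a region between genes on 3R, 2025 bp from the nearest start, that of tRNA:Ala-AGC-2-11. Next to the *Nhe2* region, whose lowest value was 4.29, the values were 4.42 just above, in an intron of *cnc* (a stress-responsive CNC/Nrf transcription factor), and 4.29 just below, in an intron of *CG46385*. The ranks from 7 to 10 around *P5CS* were a region between genes near lncRNA:CR45978 (6.65), an intron of *scrib* (a polarity protein, 4.92) and the 5′ untranslated exon of *Hsc70-3* (the chaperone BiP of the endoplasmic reticulum, 4.69). Ranks 14 to 17 followed at 4.26 to 4.21 and included an intron of *hh*, the Hedgehog ligand, and one shared by *CG7694* and *fray*, a kinase. The fall from rank 12 to rank 13 was thus too small to set *Nhe2* apart from the regions after it.

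Outside the 7 loci, the region most like each leading region in its 4 fold enrichments was named by the largest absolute log2 difference in any list. For *CG17202* this was a region between genes on 3L, 8353 bp from the start of *CG7320* (11.6, 11.96, 12.04 and 8.11, within 0.35). The same region was nearest to *CG10365*, at 0.86, so *CG10365* had no close counterpart. *P5CS* was nearest to the region near lncRNA:CR45978 (0.56), and *Nhe2* to that of *Hsc70-3* (4.69, 9.11, 5.10 and 4.75, within 0.36).

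The 4 leading regions were unalike in sequence features that had no part in their choice. The *CG17202* region filled a GATC fragment of 330 bp, from 9 bp after one motif to 8 bp before the next, and its 61.8% GC placed it above 97.7% of shared regions. The *Nhe2* region reached 12 and 15 bp past both motifs of a short 204 bp fragment. By contrast, the *P5CS* region began 11 bp after a GATC and stopped after 214 bp, 1062 bp before the next motif, and the *CG10365* region ended 8 bp before a GATC and began 746 bp after the previous one. The regions of *P5CS* and *CG10365* thus touched only one end of long fragments of 1286 and 1084 bp, against a median of 265 bp over shared regions and 197 bp over the genome. Each had 1 GATC within 500 bp of its centre, and the median over shared regions was 4.

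In 300 bp windows centred on the regions, TGACCA was found on either strand in 2 of 4, those of *CG17202* and *Nhe2*, beside 19.3% of all 7289 shared regions, 14.0% of the 100 highest-ranked and 13.3% of 456591 genome windows of that length. At *CG17202* the motif lay inside the region. At *Nhe2* it began at chr2L:21108835, past the end of the region at 21108808. The motif is not palindromic and does not overlap a GATC. Of the 4 regions, 1 was in a coding exon, 1 in another exon and 2 in introns. Coding exons held 47.6% and introns 30.9% of shared regions, and 29.0% and 37.0% of the 100 highest-ranked. The centres of 3 of 4 were within 1000 bp of a start, beside 37.5% of all shared regions and 48.0% of the 100 highest-ranked. The loci are genes with flanks of 3000 bp, so regions far from genes could not enter.

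The 12 lists held 379 peaks over the 7 loci, counted once where loci overlap: 133 in Cph lists, 130 in Control lists and 116 in Cph-over-control lists. *Nhe2*, the longest locus with 35688 bp, had 12 to 15 peaks in each Cph and each Control library. *CG10365* had 6 to 7 in Cph and 6 to 7 in Control libraries, and *P5CS* 4 to 6 in Cph and 4 to 7 in Control libraries. At the 4 short loci the counts were 2 to 5 in both groups. Beside the leading regions the windows held 14 other shared regions, 7 of them at *Nhe2*, 4 at *CG10365*, 2 at *P5CS* and 1 in the overlap of *Scgbeta* and *CG17202*. Their lowest fold enrichments ran from 1.32 to 2.54. By the definition of a leading region they lie below its lowest value in the same locus. The highest were 2.46 against 7.05 at *CG10365*, 2.38 against 5.59 at *P5CS* and 2.54 against 4.29 at *Nhe2*.

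**Figure D3:**
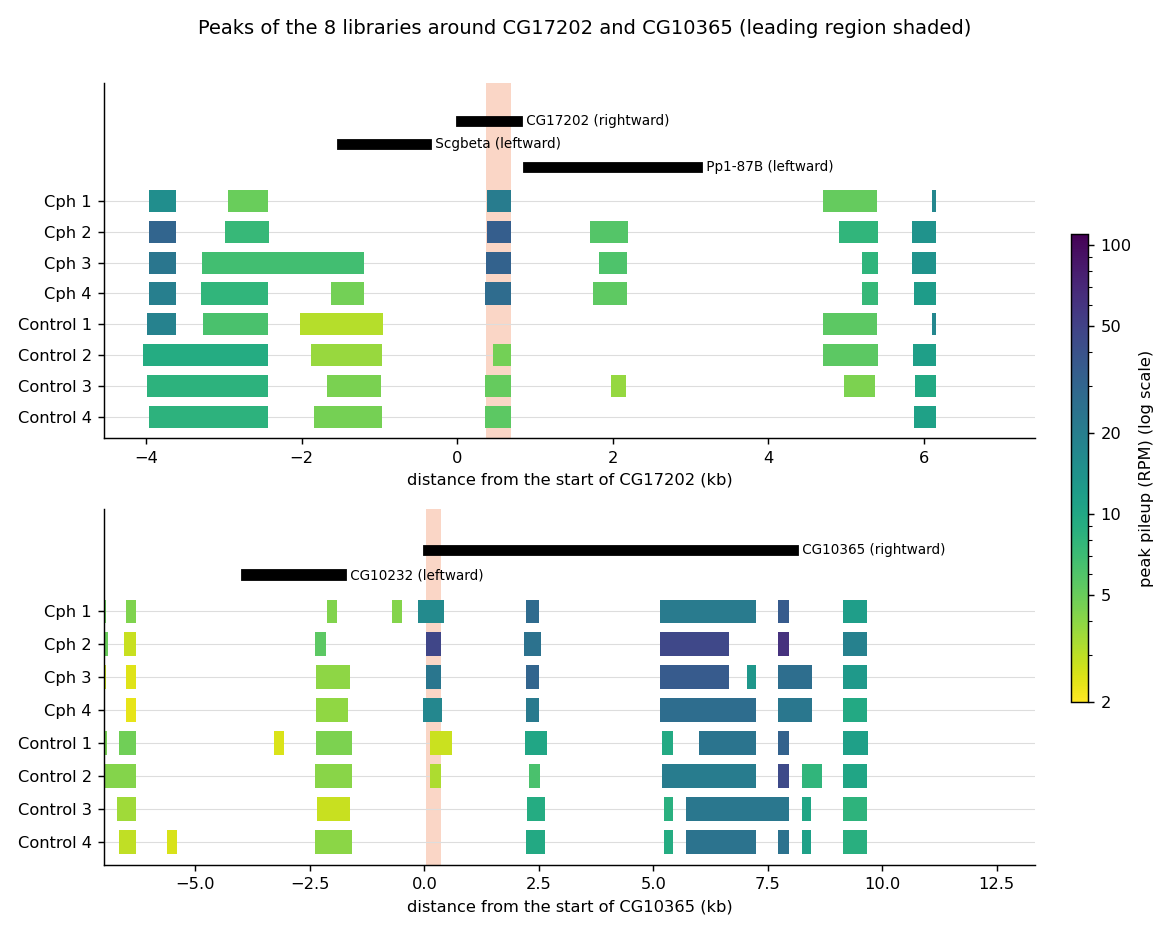
Peaks of the 8 libraries (rows, Cph above Control) around CG17202 with its neighbours and around CG10365 with CG10232, by distance from the gene start in kb. Bars are peaks, shaded by RPM on a log scale, black bars are gene bodies and the leading region is shaded across the rows. At the leading regions, chosen for this contrast, all 4 Cph rows are darker than the Control rows, which have 3 peaks at CG17202 and 2 at CG10365.

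At the *CG10365* locus, 3 further sites along the gene held shared regions. The region in its intron (chr3R:23725550-23725832) had fold enrichments of 2.45, 4.12, 3.01 and 2.03. The next, at 57 bp from the start of a shorter transcript (chr3R:23728470-23728753), had 2.46, 5.05, 2.66 and 2.76. There Cph libraries had 21.1, 46.0, 35.6 and 26.9 RPM, against 9.69, 20.7, 8.60 and 9.31 RPM in Control libraries. The Control peaks began slightly further into the gene. The Cph peaks over the site were blocks of 1512 to 2107 bp and that of Control 2 was one of 2054 bp, whereas Control 1, 3 and 4 had short peaks. Since pileup is averaged over the peak, the values were taken over unlike stretches. The last one, at the 3′ end (chr3R:23731053-23731291), had 2.17 to 2.51 and lay near *RNaseMRP:RNA*. The peaks over it had 35.6, 62.4, 26.4 and 22.5 RPM in Cph libraries and 31.8, 44.7, 22.6 and 24.1 RPM in Control libraries. They were 239, 257, 737 and 740 bp wide in Cph libraries. In Control libraries they were 239 bp wide except in Control 3, with 2240 bp, so these values too were taken over unlike stretches. The log2 difference was 0.19 ± 0.18 (SE; limma, adjusted p = 0.535). Cph was the lower one in replicate 4, where its peak was 740 bp wide and that of Control 239 bp. Beyond the gene, the 5′ exon of *Rpn9*, a lid subunit of the proteasome, had 1.71 to 2.18.

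Around *CG17202*, weak peaks lay over the bodies of its neighbours. Over the body of *Pp1-87B* a weak peak was called in Cph 2, 3 and 4 (5.41 to 6.09 RPM) and in Control 3 (3.799 RPM) but not in the other 4 libraries. Over *Scgbeta*, peaks were called in Cph 3 and 4, at 6.72 and 4.72 RPM, and in all 4 Control libraries, at 3.11 to 4.64 RPM. No shared region lay within 3000 bp of *Pp1-87B* other than the leading one.

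**Figure D4:**
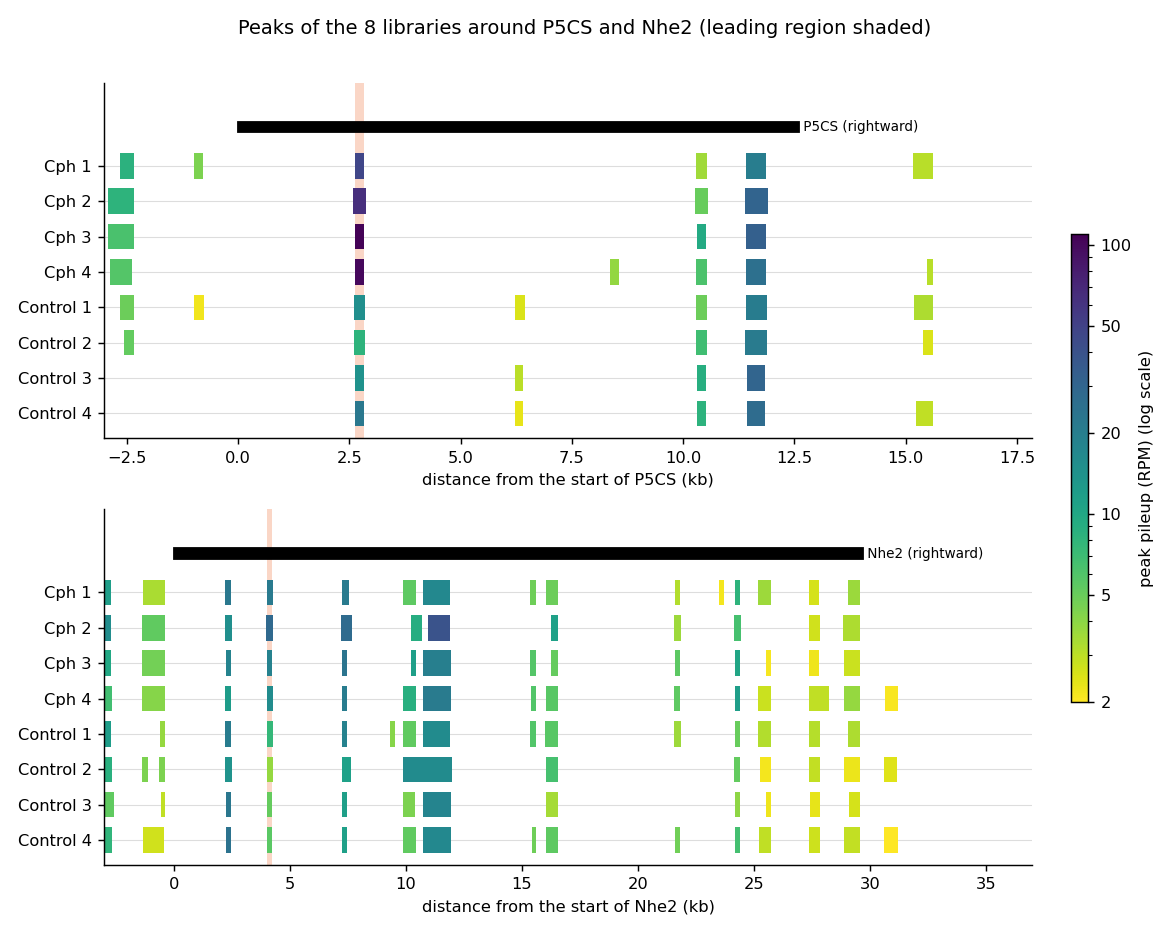
The same map for P5CS and Nhe2. Bars are peaks shaded by RPM (log scale), rows are libraries with Cph above Control, and the x axis is the distance from the gene start in kb. Control rows have a peak at both leading regions, lighter than the Cph rows, a contrast by which these regions were chosen. The peaks near 11.5 kb of P5CS look alike in both groups.

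At *P5CS* the other shared regions were a stretch of coding exon in the neighbouring *Chs2*, a chitin synthase gene, at 2.38 to 2.67, where Control 3 and 4 had no peak, and the 3′ untranslated exon of *P5CS* at 1.51 to 1.95. This 3′ site had 20.3, 30.7, 32.6 and 25.6 RPM in Cph libraries and 20.6, 21.1, 30.2 and 27.2 RPM in Control libraries, and the common region there differed by log2 0.13 ± 0.19 (SE; limma, adjusted p = 0.684). At *Nhe2* the strongest of 7 was an intron region 2578 bp from a start (chr2L:21111804-21112024), with 2.54, 3.51, 3.43 and 3.10. The coding exon at chr2L:21128736-21128949 had 2.69, 1.98, 4.14 and 2.78.

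The Cph and Control libraries were compared over common regions, covered by a peak in each of the 8 libraries for 200 bp or more, with limma on log2 RPM, replicate number as a block and Benjamini-Hochberg adjustment over all 16229 of them. Genome-wide, 6.63% were called higher in Cph (1076 regions) and 1.24% lower (201 regions) at an adjusted p of 0.05. With libraries scaled to equal medians these became 950 higher and 703 lower, since the median log2 difference of all regions moved from 0.16 to -0.02. The loci held 17 common regions outside the leading regions, and 3 of 17 were called higher and 0 lower. Their median log2 difference was 0.31 (range -0.41 to 1.55), beside a median of 0.16 over all regions, and 13 of 17 (76.5%) were above 0, beside 66.3% of all. The 17 regions share genes and libraries and are too few to set apart from the background.

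The strongest of the 3 was the *CG10365* intron (chr3R:23725624-23725832), which had 27.7, 24.4, 30.2 and 21.3 RPM in Cph libraries and 10.2, 6.37, 9.29 and 9.76 RPM in Control libraries. Pileup is averaged over the peak, and peaks here were 283 to 361 bp wide in Cph libraries (median 292 bp). In Control libraries they were 231 to 470 bp wide (median 410 bp), with the narrowest in Control 2, at 6.37 RPM. The log2 difference was 1.55 ± 0.20 (SE; limma, adjusted p = 0.00674), with 1.69 within replicates 1 and 2 and 1.41 within replicates 3 and 4, and the adjusted p stayed between 0.00198 and 0.0425 over the other scaling, the fit without the block, the other variance model and each left-out replicate. The shared region it overlaps was centred 2360 bp from the nearest start, and it was not used to choose the gene, although it was measured in the same libraries as the leading region.

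The other 2 were in *Nhe2*. The intron region at chr2L:21111804 had 21.2, 27.6, 23.5 and 20.8 RPM in Cph libraries and 18.6, 11.3, 11.6 and 11.4 RPM in Control libraries, with log2 0.84 ± 0.21 (SE; limma, adjusted p = 0.0397). The coding exon region at chr2L:21128736 had 8.29, 6.542, 10.5 and 11.9 RPM in Cph libraries and 5.04, 5.25, 3.97 and 6.65 RPM in Control libraries, with log2 0.82 ± 0.21 (SE; limma, adjusted p = 0.0415). At both, Cph was higher in 4 of 4 pairs. Neither call was kept without the replicate block (adjusted p = 0.0918 and 0.116) or when replicate 2, 3 or 4 was left out (adjusted p of 0.08 to 0.228), and 1 of 17 regions was called in those fits. The calls over all 16229 regions fell as well, with 144 higher in Cph without the block and 61, 116 and 254 without replicate 2, 3 and 4, against 1076. Scaled to equal medians, the exon region was also lost (adjusted p = 0.0616).

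Beyond the 3′ end of *Scgbeta*, the region at chr3R:12418807 lay 3270 to 3622 bp from the start of this 1194 bp gene. It had 15.5, 30.3, 22.8 and 19.9 RPM in Cph libraries and 19.0, 9.29, 8.44 and 8.41 RPM in Control libraries. The log2 difference was 1.02 ± 0.29 (SE; limma, adjusted p = 0.0577). It passed with median scaling (adjusted p = 0.0452), with a trended robust fit (adjusted p = 0.0428) and without replicate 1 (adjusted p = 0.00441). Cph peaks here were 353 bp wide in all 4 libraries and Control peaks 383 to 1605 bp (median 1540.5 bp), and pileup is averaged over the peak. In replicate 1, where both libraries had a narrow peak, Cph was the lower one, at 15.5 against 19.0 RPM. Lower values in Cph were seen beyond the 3′ end of *CG10232* (chr3R:23716816), 4601 to 4809 bp from the start of this 2283 bp gene. This region had 4.34, 2.78, 2.43 and 2.33 RPM in Cph libraries and 4.75, 4.24, 3.55 and 2.94 RPM in Control libraries. Here too the widths were unlike, at 209 to 248 bp in Cph and 364 to 1020 bp in Control libraries. The log2 difference was -0.41, with Cph lower in 4 of 4 pairs, and did not pass the test (limma, adjusted p = 0.186).

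**Figure D5:**
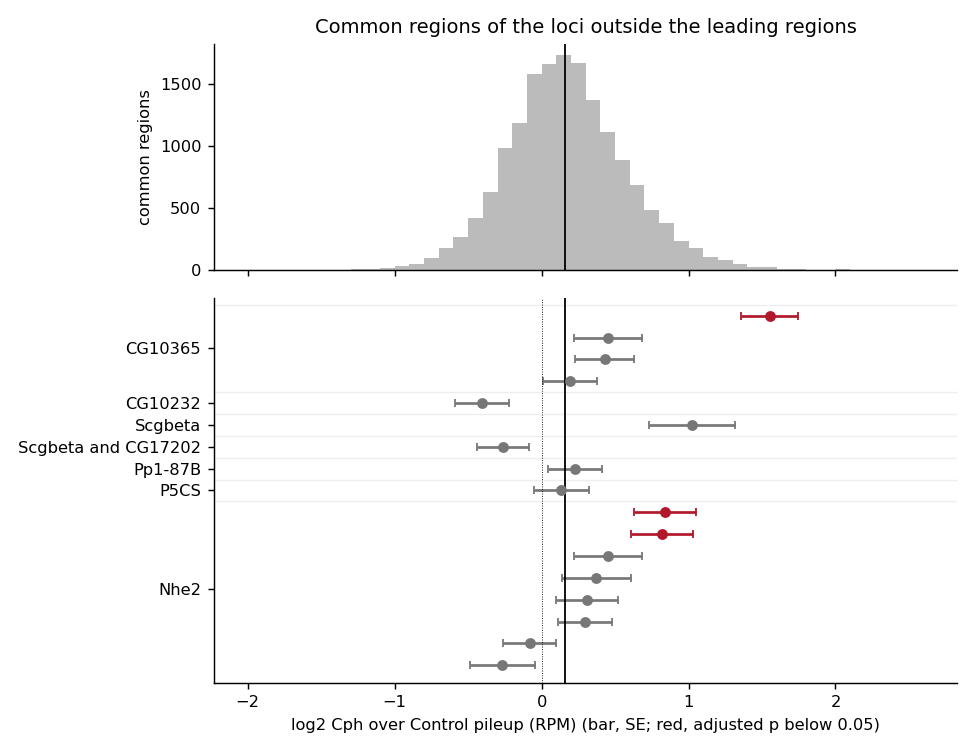
Log2 difference of Cph over Control RPM. The upper panel counts all 16229 common regions, and the lower panel shows the 17 of the loci outside the leading regions with SE bars, in red where the adjusted p is below 0.05. The solid line is the median of all regions (0.16), and the CG10365 intron at 1.55 lies farthest from it.

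The share of each locus in peaks was compared between the groups after the leading regions and the peaks over them had been taken out, by exact permutation (two-sided, 70 arrangements of the 8 libraries, smallest possible p 0.0286). *CG10232* had 9.24%, 7.61%, 13.2% and 11.9% of its window in peaks in Cph libraries and 19.2%, 20%, 15.2% and 18.4% in Control libraries. After this removal it was lower in 4 of 4 pairs and was the only one of the 7 loci without overlap between the groups (exact permutation p = 0.0286, adjusted p = 0.314). Such a p was reached by 7.62% of 17094 genes in this direction and by 1.48% in the other, and 0% passed adjustment. No bases were taken out of genes other than the 7, so these shares are not a like background. At *CG10232* the bases taken out were chosen as high in Cph. They held a peak in all 4 Cph libraries but only in Control 1 and 2. With them kept in, the groups overlapped, with means of 14.4% in Cph and 18.5% in Control libraries. Cph was then higher in replicate 3, at 15.9% against 13.7%, and lower in the other pairs. The lack of overlap thus depended on the removal, and no lower share in Cph is concluded from it. The median gene differed by -1.48 percentage points in Cph.

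At *Scgbeta* the share was 12.6%, 20.5%, 40.8% and 30.3% in Cph libraries and 33.4%, 36.6%, 35.7% and 34.9% in Control libraries, and the groups overlapped (exact permutation p = 0.257). Cph libraries spread over 12.2 percentage points (SD, n = 4) and Control libraries over 1.35 (SD, n = 4). The Scgbeta, CG17202 and Pp1-87B windows overlap, and so do those of CG10232 and CG10365, so their shares are not separate measurements. *P5CS* had 7.91 ± 0.95% in Cph and 6.93 ± 2.51% in Control libraries (SD, n = 4 each). This low share placed its Control mean at the 18.8th percentile of protein-coding genes, although no bases were taken out of the other genes. *Nhe2* had 17.7 ± 2.45% in Cph and 16.9 ± 2.86% in Control libraries (SD, n = 4 each). *CG10365* had 27.8 ± 4.64% in Cph and 29.9 ± 2.73% in Control libraries (SD, n = 4 each). Exact permutation p for *P5CS*, *Nhe2*, *CG10365*, *Pp1-87B* and *CG17202* ran from 0.314 to 0.714.

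Relatives of the members were looked up in the same shared regions. Within 3000 bp of the gene, 10 of 19 relatives held a shared region, beside 45.9% of all 18277 genes. A lowest fold enrichment of at least 3 was reached by 1 of 19, beside 1.12% of all genes. That one was *sds22*, a regulatory subunit of protein phosphatase 1, with 3.06. Of the phosphatase catalytic subunits, *flw* had 2.40 and *Pp1alpha-96A* 1.26, and *Pp1-13C* had no shared region, nor had the inhibitors *NiPp1* and *I-2*. *MYPT-75D*, a myosin phosphatase targeting subunit, had 1.96.

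In the dystrophin complex, *Scgalpha*, another sarcoglycan, had 2.33, *Dg* (dystroglycan) 2.28 and *Dys* (dystrophin) 2.09 with 7 shared regions, while *Scgdelta* and *Syn1* (syntrophin) had none. The exchangers *Nhe1* and *Nhe3* had none, unlike *Nhe2* with 8. In proline metabolism, *P5cr* and *P5cr-2*, the reductases of the last step of synthesis, had 2.25 and 2.38 and *slgA*, the proline dehydrogenase, 2.21, whereas *P5CDh1* and *P5CDh2* had none. No relative came near the 5.59 of *P5CS*, the 8.48 shared by *Scgbeta* and *Pp1-87B* or the 4.29 of *Nhe2*, values that chose the members.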

How the data were processed

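Published peak lists were used as deposited. According to the processing notes and methods, the authors trimmed reads with Trim Galore 0.6.10 and aligned them to BDGP6 with bowtie2 2.5.4, keeping unique alignments, and called broad peaks with MACS2 (2.2.9.1 in the notes, 2.1.4 in the file headers) at q = 0.05 with a broad cutoff of 0.1 and all duplicates kept. The deposited pileup is a signal not scaled for depth and was divided here by the reads of each library. The deposited fold enrichment is a ratio to the local background, and the deposited −log10 q was used for ranking and filtering. Lists without pileup were not used.

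Genes came from Ensembl release 115 and sequence from RefSeq's Release 6 assembly. The most frequent distances of peak edges from GATC motifs served to check the build. Regions were tested with limma 3.58.1 in R 4.3.3 and shares with exact permutation. In simulated data with the noise of these libraries, 32.0% of regions changed by 1 log2 unit and 83.0% of those changed by 2 were recovered, over 16229 regions. Replicate numbers were used as pairs: deviations from the group mean correlated at 0.40 to 0.51 in each same-numbered pair, although Cph 3 and Cph 4 correlated slightly better with each other's Control. Named genes were the members, genes at or next to a leading region, those of the 5 regions before and after the last leading region in the ranking, of the most alike region, and of the families. Members, lists and rules were chosen with earlier results of these data known. P-values measure the spread between 4 biological replicates per group. Depth at single sites is unknown beyond the pileup, so no counting intervals are given.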

Additional observations from a re-analysis of the deposited data

Results flagged for a closer look

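Of 58 groups of 4 libraries in which 1 value was compared with the others by Dixon's test, 4 had a value apart from the rest, and chance gives about 1 in 20. In the *Nhe2* intron at chr2L:21111804, Control 1 had 18.6 RPM (pileup per 1000000 reads), against 11.3 to 11.6 in the other Control libraries, which lies nearest to the Cph libraries. At chr2L:21120825, also in *Nhe2*, Cph 2 had 11.2 RPM, against 4.94 to 5.69 in the other Cph libraries. At chr3R:12418807, beyond the 3′ end of *Scgbeta*, Control 1 had 19.0 RPM, against 8.41 to 9.29 in the other Control libraries. Its peak was 383 bp wide where theirs reached 1605 bp. For the share of the *CG17202* window in peaks outside the leading region, Control 1 had 25.2%, against 22.1% to 22.6% in the other Control libraries. In 3 of the 4 the value belongs to Control 1, which is also the Control library without a peak over the *CG17202* leading region. The causes were not tested.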

How the results depend on the processing

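The lowest fold enrichment of each leading region stayed within 1 SD of the lists when any replicate was left out. Their log2 differences kept their direction under every alternative that gave a value. The regions were chosen by this contrast, so the kept direction is no test of them. At *CG10365* no value could be had within replicates 3 and 4. Scaled to the median of the common regions, the *CG17202* difference was 2.32. Ranked by −log10 q, the regions of *CG17202*, *CG10365* and *Nhe2* stood at 27, 68 and 306, and over peaks of at least 3 of the 4 lists at 5, 4 and 30. With a minimum length of 500 bp 0 of the 4 leading regions remained, since all are shorter. The counts of common regions called higher and lower in Cph were 144 and 17 with no replicate block, and 1 of 17 in the loci was then called. With a minimum of 500 bp, 603 were called higher, and 0 of those in the loci. With median scaling 703 were called lower. With a replicate left out, 61 to 2569 were called higher (lowest without replicate 2, highest without replicate 1), 14 to 307 lower and 1 to 4 in the loci. Without replicate 1 the region beyond the 3′ end of *Scgbeta* was also called (limma, adjusted p = 0.00441). The same region was called with all 8 libraries under median scaling (limma, adjusted p = 0.0452) and in the trended robust fit (limma, adjusted p = 0.0428). The *CG10365* intron was called in each of these fits over regions of 200 bp. Differences in the share of a locus in peaks changed sign with the window at 5 of the 7 loci. The sign was kept at *CG10232* (-7.70, then -8.63 with 1000 bp and -12.5 in the gene body) and at *Scgbeta* (-9.08, then -16.03 and -33.04). With 1000 bp they were 0.30 percentage points at *CG10365*, -0.48 at *P5CS*, 6.87 at *Pp1-87B* and 1.12 at *CG17202*. In gene bodies alone they were 0.45 at *CG10365*, -0.54 at *P5CS*, 11.9 at *Pp1-87B* and -0.33 at *Nhe2*. With a replicate left out they ranged from -7.88 to 1.497 at *CG17202* and from -3.93 to 0.61 at *CG10365*. None of these shares passed adjustment in the settings with all 8 libraries, the sign flips within pairs (the replicate block) included, whose smallest p is 0.125, and with a replicate left out only the direction was read. The cause was not tested.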
